A study of Mus musculus with 4 samples.

Results

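ATP-dependent chromatin remodelers are enzymes that spend ATP to slide, evict or exchange nucleosomes, the spools of histone on which DNA is wound. The 44 genes described here were chosen by name, as subunits of the SWI/SNF complexes (25 genes) and as members of the ISWI, CHD, INO80 and related families (19 genes). They are 44 of 52636 genes in the files, and all 44 were matched to a single gene identifier and passed the filter on low counts, which left 18172 genes for testing. The rule that lists them is by gene name and uses no measured value, but the list was drawn up with earlier results of these data known.

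Mouse kidney cells were isolated by flow sorting and their RNA was sequenced. The 2 Brg1-cKO libraries carry a conditional loss of Brg1 by the usual meaning of the label, and the 2 control libraries are the cells they are set against. Each library was made from 3000 cells, with mRNA purified on magnetic beads and strand-specific random priming. The sources used here do not give the floxed allele, the Cre driver, the sorting marker, the strain or the age. They also do not say whether replicates are different animals, so p-values reflect library-to-library spread, which may be technical. Brg1 is the protein of Smarca4, the targeted gene.

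SWI/SNF, also called BAF, opens chromatin at promoters and enhancers, and in the embryo its subunit paralogs change as progenitors differentiate. Each complex holds a single ATPase, either Brg1 or Brm, on a scaffold largely shared by 3 subtypes. BAF carries an Arid1 protein, PBAF carries Arid2 and polybromo, and ncBAF carries Brd9. ISWI enzymes space nucleosomes, CHD enzymes include the motors of the NuRD repressor complex, and the INO80 group handles the histone variant H2A.Z.

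Gene counts were 14645665 and 10922272 in the Brg1-cKO libraries and 35411905 and 37999342 in control. Of uniquely aligned reads, 49.5% and 57.2% in Brg1-cKO and 16.5% and 15.4% in control fell outside the counted features. The replicates of Brg1-cKO were far less alike than those of control, with common biological coefficients of variation of 1.11 and 0.173. All 8 nephron progenitor markers were detected in every library, with a summed level of 2402 and 2288 CPM in the Brg1-cKO pair, against 1940 and 1916 CPM in the control pair, where CPM is a gene's count per 1000000 gene counts after TMM scaling. Of these 8, Osr1, Sall1, Pax2 and Wt1 were higher in both Brg1-cKO libraries, and Cited1 and Eya1 overlapped. Wt1 differed most in CPM, with 663 and 620 CPM against 365 and 374 CPM, and so weighed most in the higher sum. The other 2 were lower, Six2 with 234 and 126 CPM against 242 and 237 CPM and Meox1 with 28.9 and 6.17 CPM against 38.7 and 33.3 CPM. Podocyte markers summed to 2406 and 2129 CPM in the Brg1-cKO pair, against 463 and 475 CPM in the control pair, with all 5 higher in both Brg1-cKO libraries. Stromal markers summed to 1239 and 1164 CPM against 2524 and 2475 CPM, and endothelial markers to 235 and 120 CPM against 472 and 480 CPM, with all 5 of each list lower. Ureteric bud markers summed to 38.8 and 40.8 CPM against 157 and 160 CPM, with Calb1 and Wnt9b at 0 in both Brg1-cKO libraries and Gata3 the 1 of 6 whose groups overlapped. Immune markers summed to 21.1 and 14.5 CPM against 56.7 and 51.2 CPM, with 4 of 5 lower and C1qa at 0 in both Brg1-cKO libraries. Red blood cell markers summed to at most 0.841 CPM in any library, with Hba-a1 and Hba-a2 at 0 in all 4 and Alas2 at up to 0.654 CPM. Reads without a unique alignment were left out of the counts, so the values of the globin genes may be too low. The sorted populations thus differed in markers of cell type, and the part of that in the remodeler values was not tested. In bulk samples such as these, fewer cells of a type and less RNA per cell cannot be told apart.

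The remodeler genes were abundant, and their summed level differed between groups by less than between the Brg1-cKO libraries. Together the 44 transcripts made up 11526 and 10802 CPM in the Brg1-cKO pair, against 11084 and 11060 CPM in the control pair. In control 28 of the 44 stood at 100 CPM or more (63.6%), which 14.2% of all genes tested did. Their principal transcripts had a median length of 5828 bases, against 3316 bases over 9887 genes at 10 CPM or more. Over those genes transcript length went with little shift between groups, at a median log2 fold change of -0.01 in the 2472 longest of those genes and 0.07 in the 2473 shortest.

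Their promoters were rich in CG dinucleotides, a sequence that reads the same on both strands. RefSeq promoter sequences (GRCm38.p6) were available for 35 of the 44 genes. Of these, 32 (91.4%) held at least 10 CG in the 250 bases before the start, against 38.2% of 27025 genes. Those 27025 genes were not limited to genes expressed here, and the share among genes of like level was not computed. The median was 21 CG per window in the remodelers and 6 in all genes. The window of Smarca4 is printed as the example because it is the targeted gene, and its 25 CG are in capitals. It covers chr9:21615919-21616168 on the plus strand.
Smarca4: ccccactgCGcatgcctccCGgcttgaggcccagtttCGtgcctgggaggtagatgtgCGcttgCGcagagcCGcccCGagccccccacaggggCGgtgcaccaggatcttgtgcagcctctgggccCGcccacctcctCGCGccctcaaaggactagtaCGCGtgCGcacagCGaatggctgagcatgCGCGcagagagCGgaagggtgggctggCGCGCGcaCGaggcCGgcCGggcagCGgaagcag

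**Figure D1:**
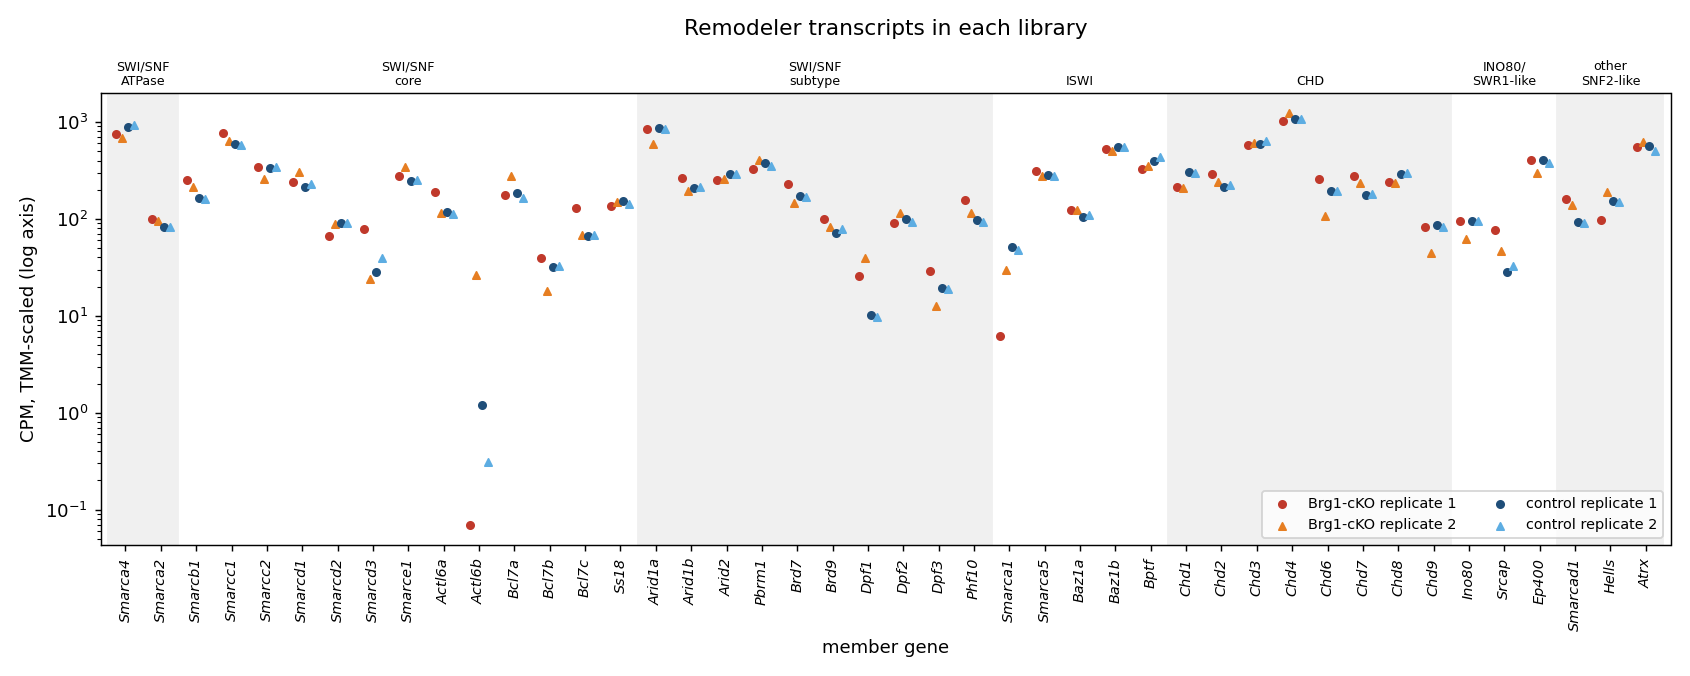
Each point is the level of 1 gene in 1 library, in CPM after TMM scaling on a log axis, for the 44 genes grouped by complex. Red and orange points are the 2 Brg1-cKO libraries and blue points the 2 controls. The controls lie within 2-fold of each other for every gene but Actl6b, while the Brg1-cKO libraries lie over 2-fold apart for 6 genes, such as Smarca1 and Chd6.

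By the quasi-likelihood test of edgeR, 0 of the 44 genes had an adjusted p under 0.05, and of all genes tested 0% did. At an unadjusted p under 0.05 there were 7 of the 44 (15.9%), against 18.3% of all genes tested. Among the 10274 genes at 10 CPM or more in mean it was 12.5%, so the members' share was near the background. Higher in Brg1-cKO among these were Smarcb1, Dpf1, Chd7, Srcap and Smarcad1, with a background of 5.44% in that direction. Lower were Smarca4 and Chd1, with a background of 12.9%. Of the 10274 genes at 10 CPM or more in mean, 751 were higher and 531 lower at that p. The groups did not overlap for 23 of the 44 genes (52.3%), as for 52% of all genes tested. Of these 23, 13 were higher in Brg1-cKO (17.5% of all genes) and 10 lower (34.5% of all genes). The 2 directions were more even among the 10274 genes at 10 CPM or more in mean, with 2426 higher and 2624 lower. With DESeq2, 2 of the 44 passed the adjusted threshold, Smarcad1 and Dpf1, where 5.43% of all genes did. With a single Brg1-cKO library left, assumed to vary like the controls, 30 of 44 passed in edgeR without replicate 1 (55.5% of all genes) and 26 without replicate 2 (60.6%). Without control replicate 1 or 2, 0 of 44 had an unadjusted p under 0.05, where 1.61% and 1.57% of all genes did, and with replicate number as a block 4 of 44 did (6.26% of all genes).

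Most fold changes were small. The value lay within 0.5 log2 units of 0 for 33 of 44 (75.0%), against 40.2% of all genes tested and 59.7% of those at 10 CPM or more. The members' median control level was 173 CPM, against 48.1 CPM over the genes at 10 CPM or more. The share among genes of like level was not computed. The median log2 fold change was 0.10 over the 44 genes and -0.06 over all genes tested. It was 0.04 over the genes at 10 CPM or more. The SWI/SNF genes had a median of 0.24, with 18 of 25 above 0, and the other remodelers a median of -0.08, with 8 of 19 above 0. The count of SWI/SNF genes above 0 rested on Brg1-cKO replicate 1, since without it 12 of 25 were above 0, with a median of -4.66e-05. The other remodelers stayed at 8 of 19. In that fit the median over all genes tested was -0.40, so the background was lower as well. In the main fit 47% of all genes were above 0. Without Brg1-cKO replicate 1 the median over the members was -0.01, and without control replicate 2 it was 0.03.

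**Figure D2:**
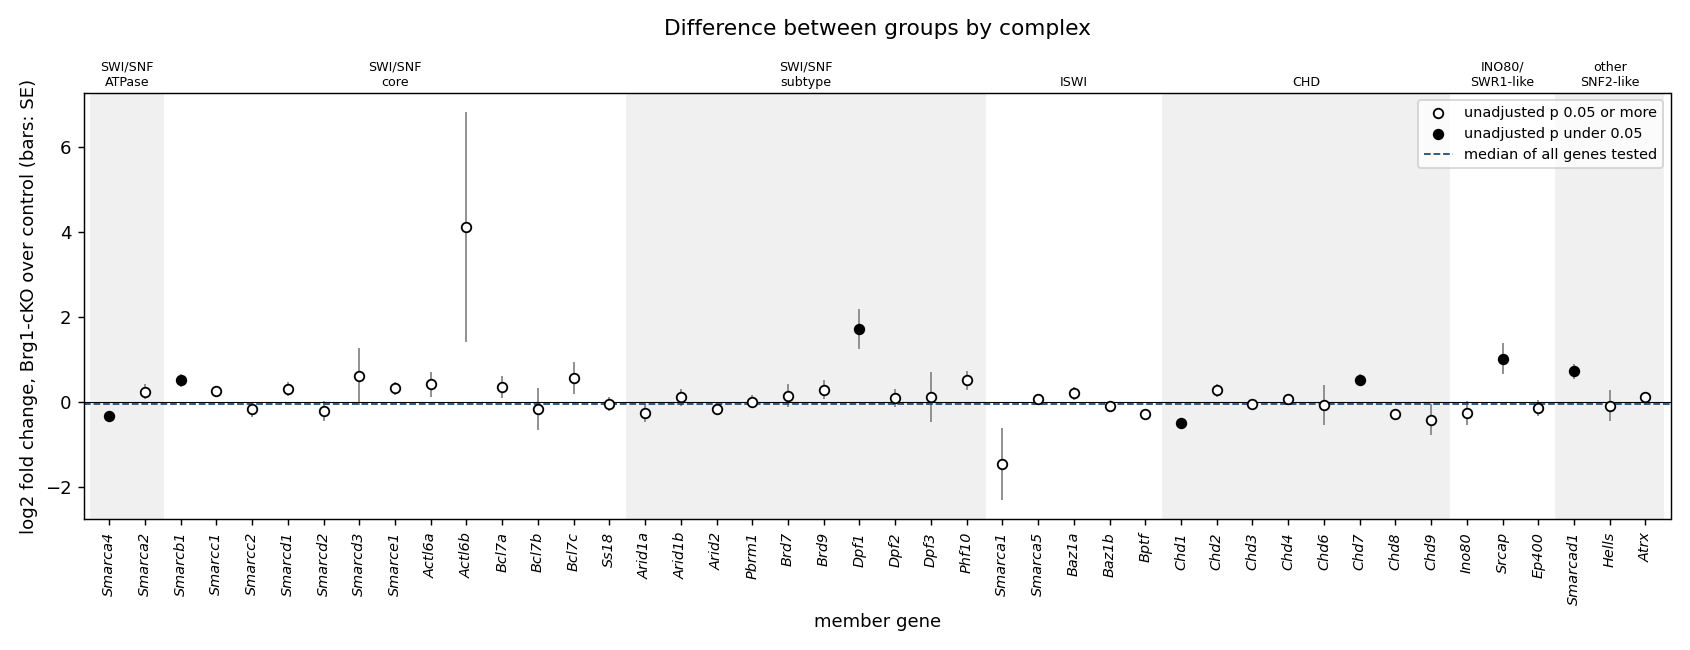
Log2 fold change of Brg1-cKO over control for each gene, with bars of 1 standard error from edgeR, grouped by complex. Filled points had an unadjusted p under 0.05 and none passed after adjustment. Most points sit near the dashed median of all genes tested, and Actl6b and Smarca1 stand out with the widest bars.

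Among the motors of SWI/SNF, the targeted gene Smarca4 had 760 and 691 CPM in Brg1-cKO replicates 1 and 2, against 898 and 937 CPM in control replicates 1 and 2. Both Brg1-cKO libraries were below both controls, yet the transcript stayed among the most abundant of the set. Its log2 fold change was -0.34 (SE 0.09, edgeR unadjusted p = 0.0193, adjusted p = 0.167). Counts cover the whole gene on chromosome 9 (mm10, 21616169 to 21704230), deleted exons or not, and so are a partial check of the labels. The log2 fold change was -0.40 without control replicate 1 and -0.34 without control replicate 2, and in these fits 0 members had an unadjusted p under 0.05.

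Smarca2, which encodes the alternative ATPase Brm, had 99.1 and 96.2 CPM in the Brg1-cKO pair, against 83.3 and 81.9 CPM in the control pair. All 4 values keep the groups apart, by less than the model's error allowed calling (log2 fold change 0.24, SE 0.18, edgeR adjusted p = 0.594). Within a library, where scaling cancels, the log2 ratio of Smarca2 to Smarca4 counts was -2.94 and -2.84 in Brg1-cKO and -3.43 and -3.52 in control. The mean ratio was higher by 0.58 log2 units in Brg1-cKO, beyond the SD of 0.07 in Brg1-cKO and 0.06 in control. The exact two-sided permutation p was 0.333, the smallest that 2 against 2 libraries allow. Per kb of principal transcript, Smarca2 stood at 0.140 and 0.149 of the level of Smarca4 in Brg1-cKO and at 0.0996 and 0.0938 in control.

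Of the 13 scaffold and core subunits, 9 had a log2 fold change above 0, and 0 passed after adjustment. Without Brg1-cKO replicate 1, 6 were above 0, in a fit where the median over all genes tested was -0.40. Smarcb1, the core subunit that contacts the nucleosome acidic patch, had 250 and 213 CPM in the Brg1-cKO pair, against 165 and 161 CPM in the control pair (log2 fold change 0.51, SE 0.15, edgeR unadjusted p = 0.0257). Both Brg1-cKO values were above both controls. Smarcc1, the scaffold Baf155, had 761 and 638 CPM against 592 and 582 CPM. Its paralog Smarcc2, the scaffold Baf170, had 343 and 255 CPM against 338 and 340 CPM, with Brg1-cKO replicate 2 below both controls and replicate 1 above them. Smarce1, the HMG-box subunit, had 279 and 340 CPM against 244 and 253 CPM. For Smarcc1 and Smarce1 both Brg1-cKO libraries were above both controls. Neither passed in the main fit (edgeR unadjusted p = 0.103 and 0.0987). With DESeq2 Smarcc1 passed the unadjusted threshold but not the adjusted one, and Smarce1 passed neither.

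The Smarcd paralogs, which link the complex to transcription factors, gave mixed values. Smarcd1 had 242 and 306 CPM in the Brg1-cKO pair, against 215 and 227 CPM in the control pair, with no overlap. Smarcd2 had 66.2 and 89.4 CPM against 90.05 and 90.6 CPM, just below the controls in the second library. Smarcd3, the form of heart and muscle, had 78.5 and 23.8 CPM against 28.5 and 39.3 CPM, so the Brg1-cKO libraries lay on either side of the controls. An antisense neighbour, Chpf2, shares 48.2% of the annotated exon bases of Smarcd3, and the strand setting of the counting is not known. The log2 ratio of Smarcd2 to Smarcd1 was -1.87 and -1.78 in Brg1-cKO and -1.26 and -1.33 in control.

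Of the actin-related and accessory subunits, Actl6b had the widest spread between Brg1-cKO libraries. Actl6a, the form found in dividing progenitors, had 189 and 115 CPM in the Brg1-cKO pair, against 117 and 112 CPM in the control pair. Actl6b, the form that replaces it in neurons, had 0.0699 and 26.2 CPM in the Brg1-cKO pair, against 1.20 and 0.311 CPM in the control pair, from 1 and 280 counts against 43 and 12 counts. Its level in Brg1-cKO thus came from replicate 2 alone, and its log2 fold change of 4.11 had an SE of 2.71. Without Brg1-cKO replicate 2 it was -3.37. Among the Bcl7 accessory subunits, Bcl7a had 175 and 274 CPM against 186 and 166 CPM. Bcl7b had 39.5 and 18.2 CPM against 31.7 and 32.9 CPM. Bcl7c had 131 and 68.8 CPM against 66.0 and 68.9 CPM. In each of these 3 the groups overlapped. Ss18, a subunit of BAF and ncBAF known from the fusion protein of synovial sarcoma, also overlapped, with 135 and 150 CPM against 153 and 142 CPM.

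Of the 10 subunits that set the subtype of the complex, 1 had an unadjusted p under 0.05, the neuronal Dpf1. The share was 18.3% over all genes tested and 12.5% over those at 10 CPM or more in mean. For BAF, Arid1a had 848 and 589 CPM in the Brg1-cKO pair, against 874 and 850 CPM in the control pair, and its log2 fold change of -0.26 (SE 0.20) rested on replicate 2. Arid1b had 264 and 193 CPM against 211 and 213 CPM. The log2 ratio of Arid1b to Arid1a was -1.68 and -1.61 in Brg1-cKO and -2.05 and -1.997 in control, so the ratio kept the groups apart where the Arid1b level did not. For PBAF, Arid2 had 254 and 258 CPM against 287 and 289 CPM, and Pbrm1, or polybromo, had 326 and 404 CPM against 376 and 353 CPM. Brd7, its bromodomain subunit, had 230 and 145 CPM against 172 and 168 CPM. Phf10, the PBAF subunit Baf45a, had 155 and 116 CPM against 97.7 and 93.9 CPM (log2 fold change 0.50, SE 0.22, edgeR unadjusted p = 0.0813), and without Brg1-cKO replicate 1 its log2 fold change was 0.25. Brd9 of ncBAF had 99.7 and 82.0 CPM against 70.9 and 77.8 CPM.

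Dpf1, a zinc-finger subunit of neuronal BAF, had 25.9 and 39.3 CPM in the Brg1-cKO pair, against 10.2 and 9.72 CPM in the control pair. Both Brg1-cKO libraries were above both controls, at a log2 fold change of 1.71 (SE 0.46). Its unadjusted p was 0.0202 and its adjusted p 0.170 in edgeR, and its adjusted p was 0.0459 with DESeq2. Dpf3, a form of neurons and muscle, had 28.9 and 12.6 CPM against 19.3 and 19.0 CPM, on either side of the controls. Dpf2, the broadly expressed form, had 91.0 and 114 CPM against 101 and 92.0 CPM. The 5 neuron markers summed to 112 and 84.6 CPM in the Brg1-cKO pair and 50.0 and 52.4 CPM in the control pair. Elavl4 and Map2 were higher in both Brg1-cKO libraries, Tubb3 and Stmn2 lower, and Stmn2 was at 0 in both. Snap25 had 0.978 and 16.3 CPM in the Brg1-cKO pair, against 0.307 and 1.17 CPM in the control pair. The part of neuron transcripts in the Dpf1 and Actl6b values was not tested.

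ISWI showed its widest difference in the X-linked ATPase. Smarca1, which encodes Snf2l, had 6.15 and 30.0 CPM in the Brg1-cKO pair, against 51.8 and 47.8 CPM in the control pair. Both Brg1-cKO libraries were lower, but they differed from each other by nearly 5-fold (4.88), and the log2 fold change of -1.47 had an SE of 0.84 (edgeR adjusted p = 0.492). Without Brg1-cKO replicate 1 it was -0.76 and without replicate 2 it was -3.04. With the replicate block it was -1.86 (edgeR unadjusted p = 0.0129, adjusted p = 0.443). With limma-voom it was -2.04 (unadjusted p = 0.0499, adjusted p = 0.252). Smarca5, the Snf2h motor of most ISWI complexes, had 310 and 276 CPM against 286 and 277 CPM. The log2 ratio of Smarca1 to Smarca5 was -5.65 and -3.20 in Brg1-cKO and -2.46 and -2.53 in control. Xist, the RNA of the inactive X, stood at 836 and 1205 CPM in the Brg1-cKO pair, against 244 and 217 CPM in the control pair. The Y-linked Ddx3y stood at 1.05 and 3.27 CPM against 76.0 and 78.8 CPM, and Eif2s3y, Kdm5d and Uty were lower in the same way. Of the genes that escape X inactivation, Kdm5c had 293 and 239 CPM against 196 and 211 CPM, and Kdm6a overlapped. Both control libraries thus held Xist and Y-linked RNA together. The sex of the cells and the genotype cannot be told apart, for Smarca1 or any other gene here. Stromal and endothelial markers were lower in the same Brg1-cKO libraries. The part of each in the Smarca1 values was not tested. The other X-linked member, Atrx, which deposits histone H3.3 with Daxx, overlapped between groups, with 549 and 618 CPM against 565 and 505 CPM.

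The ISWI partners differed less in level. Baz1a, or Acf1, had 124 and 123 CPM in the Brg1-cKO pair, against 104 and 111 CPM in the control pair. Baz1b, the Williams syndrome transcription factor, had 531 and 507 CPM against 555 and 556 CPM. Bptf, the largest NURF subunit, had 328 and 352 CPM against 399 and 431 CPM (log2 fold change -0.29, SE 0.11, edgeR unadjusted p = 0.0549). Bptf and Baz1b were below both controls, and Baz1a above them.

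In the CHD family both genes of the first subfamily kept the groups apart, on opposite sides of control. Chd1, which binds methylated H3K4 at active genes, had 215 and 209 CPM in the Brg1-cKO pair, against 303 and 301 CPM in the control pair. The replicates of each group lay close together and apart from the other group, at a log2 fold change of -0.51 (SE 0.11, edgeR unadjusted p = 0.00946, adjusted p = 0.166). Chd2, its paralog, had 288 and 240 CPM against 215 and 223 CPM. A noncoding neighbour on the same strand, 1810026B05Rik, shares 18.4% of the exon bases of Chd2. The log2 ratio of Chd2 to Chd1 was 0.42 and 0.20 in Brg1-cKO and -0.49 and -0.43 in control, so the more counted of the pair was Chd2 in Brg1-cKO and Chd1 in control.

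Chd4, the main NuRD motor, was the most abundant of the 44 transcripts in CPM, with 1023 and 1225 CPM in the Brg1-cKO pair, against 1062 and 1075 CPM in the control pair. Chd3, the alternative NuRD motor, had 583 and 602 CPM against 594 and 639 CPM. For both genes the groups overlapped.

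Of the third subfamily, Chd7, the CHARGE syndrome gene, had 280 and 235 CPM in the Brg1-cKO pair, against 177 and 183 CPM in the control pair (log2 fold change 0.52, SE 0.15, edgeR unadjusted p = 0.0241). Chd8, an antagonist of beta-catenin signalling, had 241 and 237 CPM against 289 and 297 CPM (log2 fold change -0.29, SE 0.11, edgeR unadjusted p = 0.0534). Neither pair of groups overlapped, and the log2 ratio of Chd7 to Chd8 was 0.21 and -0.01 in Brg1-cKO and -0.71 and -0.70 in control. Chd6 had 259 and 106 CPM against 193 and 193 CPM, on either side of the controls. Chd9 had 81.8 and 44.6 CPM against 85.6 and 83.3 CPM, with replicate 2 the lower.

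Of the INO80 group, Ino80 itself had 95.5 and 62.0 CPM in the Brg1-cKO pair, against 94.8 and 94.8 CPM in the control pair. Ep400, the motor of the Tip60 complex, had 406 and 298 CPM against 406 and 374 CPM. Both overlapped. Srcap, which exchanges H2A for H2A.Z, had 76.4 and 46.9 CPM against 28.5 and 32.4 CPM (log2 fold change 1.02, SE 0.36, edgeR unadjusted p = 0.0476). Without Brg1-cKO replicate 1 the log2 fold change was 0.59, and with scaling by total counts the edgeR unadjusted p was 0.0530. A predicted gene on the same strand, Gm42715, shares 61.7% of the Srcap exon bases, and reads in the shared part may have gone to neither, so the level of Srcap is uncertain.

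Smarcad1, an ATPase of silent chromatin and DNA end resection, had 162 and 140 CPM in the Brg1-cKO pair, against 93.2 and 89.9 CPM in the control pair. Its groups were well apart, at a log2 fold change of 0.72 (SE 0.17, edgeR unadjusted p = 0.0136, adjusted p = 0.166) and a DESeq2 adjusted p of 0.0354. Without single libraries its fold change ran from 0.58 to 0.80. Hells, the ATPase that helps methylate repeat DNA, had 97.1 and 188 CPM against 155 and 149 CPM, on either side of the controls.

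Levels of the 18 ATPases were compared per kb of principal transcript, since longer transcripts collect more reads. In Brg1-cKO the order of the means was led by Chd4 at 168 and Smarca4 at 114 CPM per kb, followed by Chd3 at 81.6, Atrx at 56.8 and Smarca5 at 47.9 CPM per kb. In control the same 5 stood at 160 for Chd4, 144 for Smarca4, 84.9 for Chd3, 52.1 for Atrx and 46.0 CPM per kb for Smarca5. In Brg1-cKO the lowest Atrx value, 53.4, lay above the highest of Smarca5, 50.7 CPM per kb. Smarcad1 at 17.7 and Chd7 at 17.6 CPM per kb in control did not differ beyond their spread, nor did Chd1 at 38.1 and Ep400 at 36.8. Lowest in control were Smarca1 at 10.4, Chd9 at 7.03 and Srcap at 2.86 CPM per kb. The place of Srcap is uncertain, since Gm42715 shares 61.7% of its exon bases and reads there may not have been counted. The lead of Chd4 over Smarca4 in control turned round when all annotated exons were used as the length (133 against 142 CPM per kb).

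**Figure D3:**
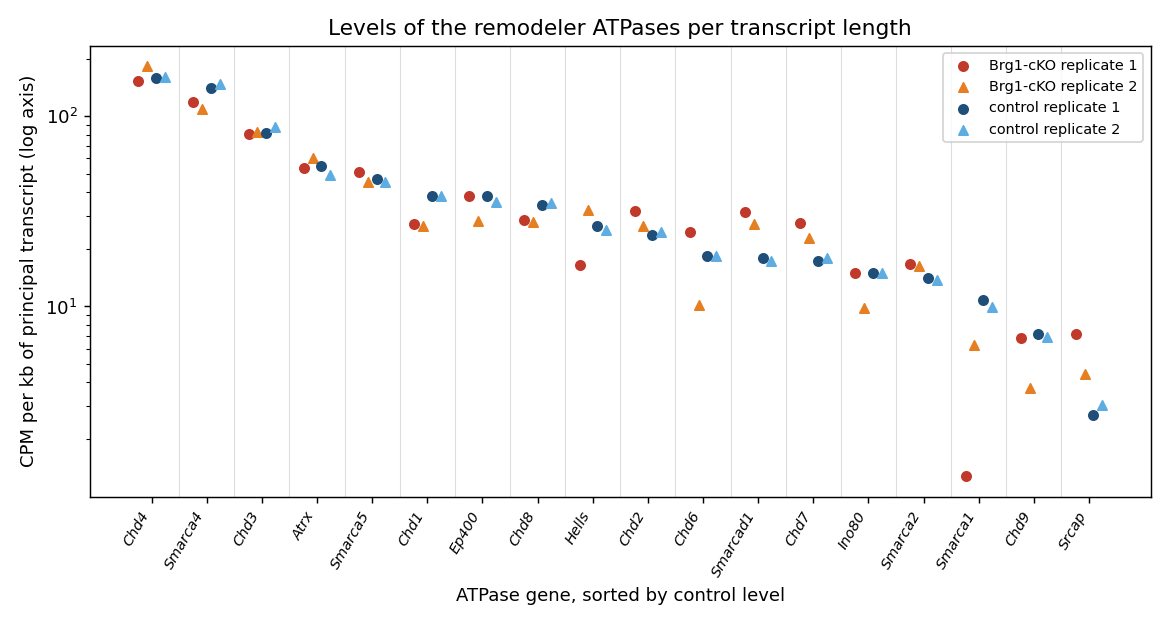
Level of each of 18 remodeler ATPases in each library, in CPM per kb of principal transcript on a log axis, sorted by the control mean. Chd4 and Smarca4 lead in all 4 libraries. Srcap is lowest in control at 2.86 CPM per kb, a level made uncertain by a same-strand gene that shares its exons.

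Within-library ratios were taken for 17 pairs of paralogs or partners. The Brg1-cKO libraries were both above both controls in 7 pairs, both below in 4 and overlapped them in 6. Levels of single genes did not overlap for 52% of all genes tested. The share over ratios of other gene pairs was not computed, so these counts are a description only. Besides those given above, the log2 ratio of Smarcc2 to Smarcc1 was -1.15 and -1.32 in Brg1-cKO against -0.81 and -0.77 in control. That of Bcl7b to Bcl7c was -1.73 and -1.92 against -1.06 and -1.07, though the groups overlapped for each gene alone. The ratio of Baz1a to Baz1b was -2.10 and -2.05 against -2.41 and -2.33. No pair could have an exact p below 0.333. Among the pairs whose ratio overlapped, Chd3 to Chd4 was -0.81 and -1.02 against -0.84 and -0.75.

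**Figure D4:**
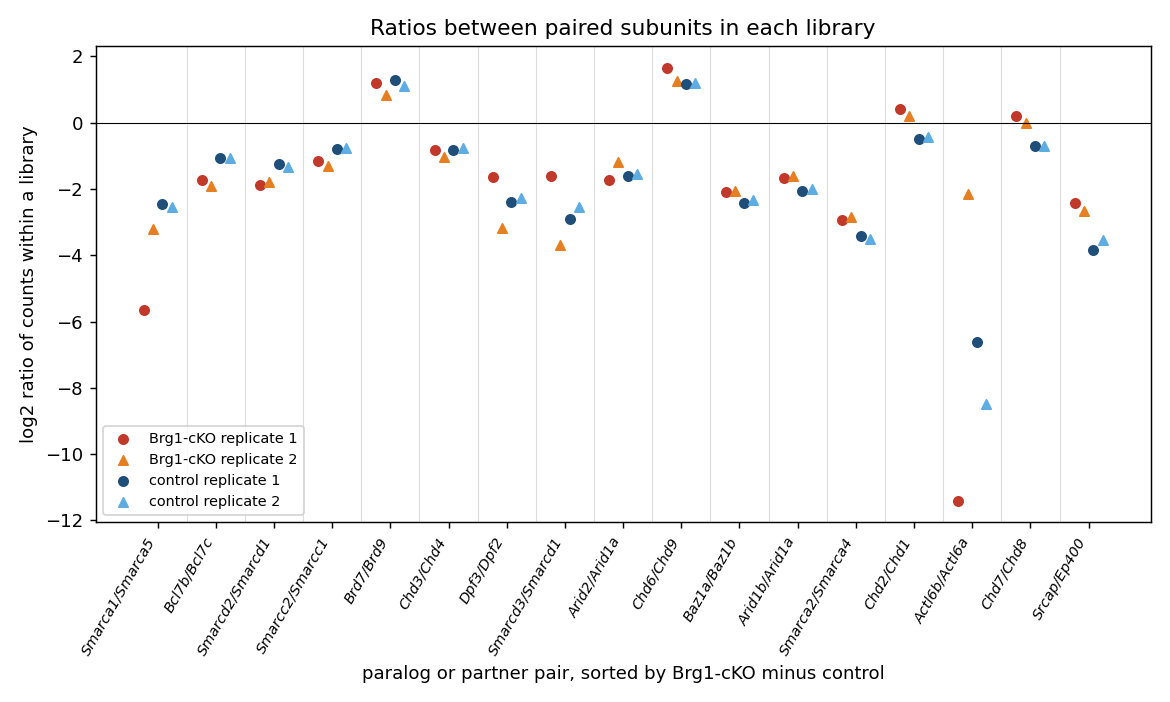
Log2 ratio of counts between the named genes of 17 pairs in each library, sorted by the mean of Brg1-cKO minus control. Both Brg1-cKO points lie above both control points for Smarca2/Smarca4, Chd2/Chd1 and Chd7/Chd8 and below them for Smarca1/Smarca5, while Actl6b/Actl6a spans from -11.4 to -2.14 between the Brg1-cKO libraries.

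The Brg1-cKO libraries differed from each other by over 2-fold for 6 of the 44 genes (13.6%), namely Smarcd3, Actl6b, Bcl7b, Dpf3, Smarca1 and Chd6. Of all tested genes at 5 CPM or more in a library, 47.3% did so, and of those at 10 CPM or more in mean 35.2%. Neither background was matched to the higher level of the members. The control libraries differed by over 2-fold for 1 of the 44, Actl6b, against 5.16% of tested genes at 5 CPM or more.

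The partners of these enzymes, 69 further genes in 6 lists, likewise gave 0 genes past the adjusted threshold. At an unadjusted p under 0.05 there were 6 (8.70%), 2 higher and 4 lower in Brg1-cKO. The share was 18.3% over all genes tested and 12.5% over those at 10 CPM or more in mean. The partners' median log2 fold change was -0.03. Higher were Tfpt of INO80, with 39.6 and 29.1 CPM in the Brg1-cKO pair, against 15.3 and 14.1 CPM in the control pair, and the recombination ATPase Rad54l, with 72.0 and 51.8 CPM against 32.2 and 36.7 CPM. Lower was Hdac2, a NuRD deacetylase, with 177 and 212 CPM against 342 and 310 CPM (log2 fold change -0.74, SE 0.15). Meaf6 of the Tip60 complex had 26.2 and 23.1 CPM against 50.4 and 56.1 CPM, and the remodeler Chd1l had 20.7 and 17.5 CPM against 42.5 and 42.0 CPM. H3f3b, which encodes histone H3.3, had 361 and 362 CPM against 578 and 568 CPM, from a family with many processed copies in the genome, which makes its count uncertain. Of the 6 further SWI/SNF subunits none had an unadjusted p under 0.05. The nearest was Bicral of ncBAF, with 121 and 51.5 CPM against 30.9 and 35.8 CPM (edgeR unadjusted p = 0.0523). All 9 ISWI partners were likewise above that threshold.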

How the data were processed

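Counts of reads per gene were deposited for each of 4 libraries, as whole numbers not normalized by the authors. Per the submitters' processing notes mm10, TopHat and DESeq2 were used. How reads were assigned to genes, with which annotation and strand setting, is not given in the sources used here. Reads assigned to no gene (Brg1-cKO 65.5% and 72.1% of the total, control 32.4% and 31.8%) were left out of library sizes.

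Symbols, positions and lengths came from GENCODE M21 on the same build (52403 of 52636 identifiers matched). Exons of 22 of the 44 members overlap another gene. The fit used edgeR 4.0.16 in R 4.3.3 (TMM, default filter with a minimum count of 10, robust quasi-likelihood test, group as only term, Benjamini-Hochberg over 18172 genes). It was tested on simulated data in which all libraries had the same spread. That test cannot tell how the fit does with the unequal spread here (common biological coefficient of variation 1.11 in Brg1-cKO and 0.173 in control). A standard error is the log2 fold change over the root of F. Levels per kb use the longest principal transcript. No member had a count of 0, which would leave room for 3 counts, or 0.210 and 0.280 CPM in Brg1-cKO and 0.0838 and 0.0778 CPM in control, by counting error only. Alternatives were DESeq2 1.42.0 with the same filter, limma-voom (limma 3.58.1), other scalings and filters, a replicate block and single libraries left out.

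The members and lists were chosen with earlier results of these data known. The rule for named genes gave each library's values for ATPases, members at an unadjusted p under 0.05 and members whose Brg1-cKO libraries differ over 2-fold at 5 CPM or more. The other members were added because the set is small. Of each partner list at most 3 genes are named.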

Additional observations from a re-analysis of the deposited data

Results flagged for a closer look

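Reads that the comparisons did not use stood above the control level in both Brg1-cKO libraries. Reads aligned uniquely but given to no counted feature made up 49.5% and 57.2% of uniquely aligned reads in Brg1-cKO replicates 1 and 2, against 16.5% and 15.4% in control. Reads that did not align made up 21.3% and 25.5% of all reads in Brg1-cKO against 6.32% and 6.69% in control. Their part in the remodeler values was not tested.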

How the results depend on the processing

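The count of genes past the adjusted threshold, 0 with edgeR, was 987 with DESeq2, 327 with limma-voom, 156 with the replicate block and 16 to 13262 with single libraries left out, where a lone Brg1-cKO library is assumed to vary like the controls. Members past it numbered 2 with DESeq2 and 0 to 30 with single libraries left out, namely 30 without Brg1-cKO replicate 1 (55.5% of all genes passed) and 26 without replicate 2 (60.6%). Genes at an unadjusted p under 0.05 numbered 3328, against 1422 with a filter of 10 CPM in 2 libraries, 1137 with the replicate block and 308 to 14133 with single libraries left out. Of members there were 7, against 4 with the replicate block (6.26% of all genes), where Smarcb1, Dpf1, Chd7 and Srcap (unadjusted p = 0.0812) were not among them, and 0 to 32 with single libraries left out. It was 0 without either control library, where 1.61% and 1.57% of all genes were. The members' median ran from -0.013 to 0.080 with single libraries left out. The median over all genes tested ran from -0.58 to 0.0065 in those fits. Smarca4 kept its direction under every alternative, from -0.44 to -0.29 with single libraries left out and at -0.28 with DESeq2 and with RLE scaling, and passed without either Brg1-cKO library (edgeR adjusted p = 4.42e-06 without replicate 1 and 8.26e-05 without replicate 2, 0.0345 for Smarca2 without replicate 2). Smarca2 ran from 0.19 to 0.24 with single libraries left out and was 0.30 with DESeq2 and with RLE scaling, and the difference of 0.58 in its log2 ratio to Smarca4 was the same to 2 decimals with 0.5 counts added and ran from 0.53 to 0.63 with single libraries left out.

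Direction held for 41 of 44 members under every alternative that kept all 4 libraries. The exceptions lay near 0, namely Pbrm1 (0.0027, against -0.038 with total counts, -0.032 with no filter, -0.026 with limma-voom and -0.0050 with the replicate block), Dpf3 (-0.0026 with the replicate block) and Ss18 (0.0027 with DESeq2 and 0.0028 with RLE scaling). With single libraries left out as well, 27 of 44 kept it. The ranges over the 4 libraries left out were -0.018 to 0.70 for Actl6a, -3.37 to 5.33 for Actl6b, -0.16 to 0.30 for Arid1b, -0.028 to 0.61 for Bcl7a, -0.85 to 0.27 for Bcl7b, -4.66e-05 to 0.94 for Bcl7c, -0.25 to 0.42 for Brd7, -0.083 to 0.17 for Chd4, -0.89 to 0.40 for Chd6, -0.10 to 0.22 for Dpf2, -0.63 to 0.57 for Dpf3, -0.42 to 0.038 for Ep400, -0.67 to 0.28 for Hells, -0.18 to 0.12 for Pbrm1, -0.054 to 0.12 for Smarca5 and -0.54 to 1.19 for Smarcd3. The lead of Chd4 over Smarca4 per kb in control, a log2 ratio of 0.14, was -0.088 with the length of all annotated exons, an alternative chosen after seeing the data. Replicate numbers were not treated as pairs in the main fit. Deviations of same-numbered libraries from their group means correlated at -0.0169 across genes. With 2 libraries per group this single value cannot tell whether same-numbered libraries were handled together. The causes were not tested.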
